A study of Mus musculus with 2 samples.

Results

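The cells described here were the mouse embryonic stem cells with the highest content of mitotic messenger RNA in LBPXRS culture. They were chosen by measured values: among barcodes with at least 1000 detected genes and at most 10% of their UMIs from mitochondrial genes, the 10% of cells with the largest share of UMIs from Plk1, Ccnb1, Cdc20, Aurka and Cenpf were taken. A UMI (unique molecular identifier) marks 1 captured RNA molecule. The rule took 270 of 2705 kept LBPXRS cells, from 3111 deposited barcodes, and the other 2435 kept cells served for comparison. The whole series held 4488 kept cells in 2 libraries.

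Both libraries came from the R1 line of mouse embryonic stem cells, grown in N2B27 medium for 72 hours, with 1 library per condition. LB cells received the self-renewal cytokine LIF with BMP4 and grew on gelatin. LBPXRS cells received LIF and BMP4 together with PD0325901, an inhibitor of MEK, Xav939, an inhibitor of tankyrase in the WNT pathway, SB431542, an inhibitor of the activin and NODAL receptors, and a resorcylic lactone (the labels name no target for it). Their substrate was fibronectin, so effects of the medium and of the substrate cannot be told apart. Each condition being a single library, nothing could be tested across samples. Every difference below is given by its size, with a 95% interval that covers counting error only.

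Mitosis is started by cyclin B with the kinase Cdk1, helped by the Polo and Aurora kinases, and is ended when Cdc20 directs the anaphase-promoting complex to destroy cyclin B and securin. Transcripts of many genes that act in mitosis accumulate through G2, so a high level of them marks late G2 and mitosis together and does not place a cell in a stage. Plk1 is the main Polo-like kinase, Ccnb1 encodes cyclin B1, Cdc20 activates the anaphase-promoting complex, Aurka is a centrosomal kinase needed for spindle assembly, and Cenpf is a large protein of the outer kinetochore. Embryonic stem cells divide fast and have a short G1 phase.

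The promoters of these 5 genes are shown because the cells were chosen by their transcripts. Many promoters of genes of this phase are known to carry a CCAAT box and a cell cycle homology region, whose core reads TTTGAA, or TTTAAA as a variant. The sequences are RefSeq promoters of build GRCm38.p6, from 120 bases before the annotated start to 30 after it, written 5′ to 3′ on the gene's strand. Capitals mark the CCAAT box and either form of the core, on either strand.
Plk1: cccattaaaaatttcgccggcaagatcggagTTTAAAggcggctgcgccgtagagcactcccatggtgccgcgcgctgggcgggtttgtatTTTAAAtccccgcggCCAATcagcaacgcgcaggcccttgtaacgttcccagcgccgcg
Ccnb1: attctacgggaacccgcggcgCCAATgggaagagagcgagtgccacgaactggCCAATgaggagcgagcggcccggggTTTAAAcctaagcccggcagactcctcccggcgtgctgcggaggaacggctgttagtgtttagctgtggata
Cdc20: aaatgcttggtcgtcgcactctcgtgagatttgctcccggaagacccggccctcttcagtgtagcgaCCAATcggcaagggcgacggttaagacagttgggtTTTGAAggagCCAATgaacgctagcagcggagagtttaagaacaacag
Aurka: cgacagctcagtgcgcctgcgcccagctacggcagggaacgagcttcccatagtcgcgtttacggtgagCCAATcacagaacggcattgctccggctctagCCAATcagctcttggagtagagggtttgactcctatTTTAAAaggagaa
Cenpf: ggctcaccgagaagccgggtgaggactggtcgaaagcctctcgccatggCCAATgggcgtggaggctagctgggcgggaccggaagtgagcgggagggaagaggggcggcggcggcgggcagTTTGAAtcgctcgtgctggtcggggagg
The windows lie at chr7:122159315-122159464 on the plus strand for Plk1 and, on the minus strand, at chr13:100786457-100786606 for Ccnb1, chr4:118437314-118437463 for Cdc20, chr2:172370541-172370690 for Aurka and chr1:189688057-189688206 for Cenpf. Each window held at least 1 CCAAT and at least 1 of the other 2 motifs.

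The same letters were counted in the 300 bases around each start (250 before it, 50 after), on both strands; TTTAAA reads the same on both, and the 3 motifs share no full match. All 5 of these genes held CCAAT together with TTTGAA or TTTAAA, as did 10.7% of 32851 RefSeq promoters and 8.17% of 7296 promoters of genes measured here (5722 of 7071 genes matched by symbol). TTTGAA was in 65.1% of the 63 promoters of genes on the mitotic lists described below that were at least 1.5-fold higher in the chosen cells (58 of 68 genes matched). It was in 33.3% of the 36 promoters of the genes of those lists that were not, and in 12.5% of the promoters of all genes measured. CCAAT was in 74.6%, 44.4% and 38.9% of the same 3 sets. It was also in 8 of the 12 promoters (66.7%) of the 12 lowest genes on no cell cycle list described below. Of these 12 promoters, 1 held TTTGAA and 0 held it together with CCAAT. Among genes on no cell cycle list that were at least 1.5-fold higher, 22.6% of 102 promoters held TTTGAA and 42.2% held CCAAT. A match describes the letters in these windows, not a bound site.

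The 5 genes made up 0.104% to 0.587% of the UMIs of the chosen cells, with a median of 0.129%, and had a median of 0.0324% in the other cells, 110 of which held none. The lowest chosen cell stood at 0.10383% and the highest of the other cells at 0.10367%. The class was cut from a score at a fixed share of cells and is described as a range of that score; these values do not show whether a separate type exists. Within 10% of the value at the cut lay 64 chosen cells and 77 others. Of the 270 chosen cells, 161 were taken again when cells were thinned at random to 5000 UMIs before scoring. With 1 rule gene left out, between 205 (Cdc20) and 249 (Plk1) were taken again. A chosen cell carried a median of 24.5 UMIs of the 5 genes and another cell 6. All 5 genes were detected in 173 of the 270 chosen cells, 4 of them in 60, 3 in 26, 2 in 8 and a single one in 3.

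**Figure D1:**
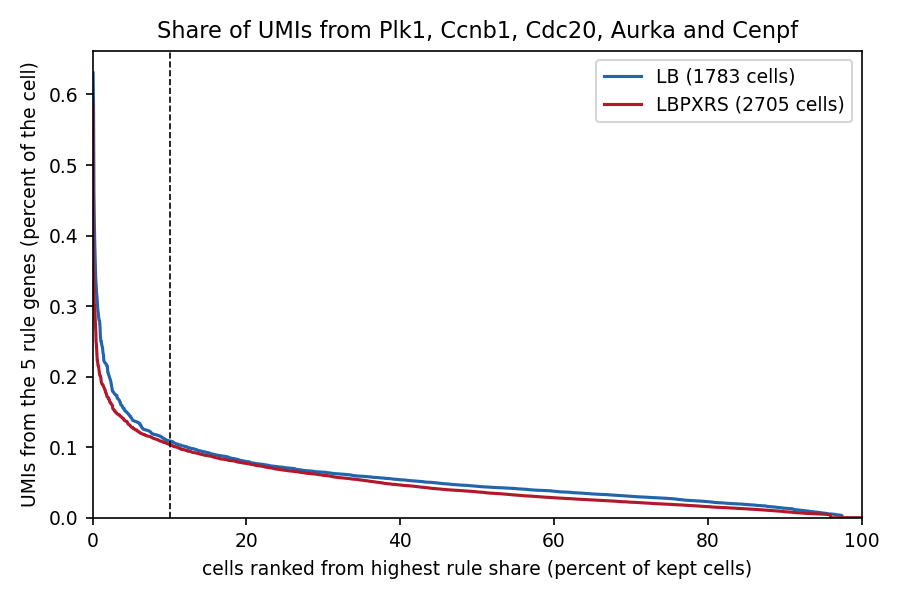
Share of each kept cell's UMIs from Plk1, Ccnb1, Cdc20, Aurka and Cenpf (vertical axis, percent), with cells ranked from highest to lowest (horizontal axis, percent of kept cells), for LBPXRS in red and LB in blue; the dashed line marks the 10% of cells taken. Neither curve has a step at the line: the LBPXRS cells on its 2 sides stood at 0.10383% and 0.10367%.

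The curves of the ranked shares have nearly the same course in both libraries. The same rule took 178 of 1783 kept LB cells. At the LBPXRS cut, 198 LB cells (11.1%, exact binomial interval 9.68 to 12.7) would have been taken. After thinning at random to 5000 UMIs, which left out 84 shallower LBPXRS cells (33 of them chosen) and 50 LB cells, 9.96% of 2621 LBPXRS cells (8.84 to 11.2) and 11.7% of 1733 LB cells (10.2 to 13.3) carried at least 6 UMIs of the 5 genes. The intervals overlap, and the difference between the libraries was not tested. The libraries had 8 kept barcodes in common, of which 5 were among the 270 chosen cells. Whether these barcodes stand for carry-over between the libraries was not tested; without them, 110 genes on no cell cycle list were at least 1.5-fold higher and 20 lower, where 103 and 18 were with them.

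The chosen cells held 5065215 UMIs, with a median of 19321 per cell (interquartile range 12318 to 25241) and 3975 genes. The other cells had a median of 19046 UMIs (15671 to 22718) and 3783 genes. Thinned to 5000 UMIs, the medians were 1752 and 1689 genes. The chosen cells had a wider spread of depth: 33 of them (12.2%, 8.57 to 16.7) held under 5000 UMIs against 2.09% of the others (1.56 to 2.75), and they made up 38 of the 136 deepest cells of the library. A mitochondrial share under 0.5% was found in 15.6% of them (11.5 to 20.4) and in 5.17% of the others (4.33 to 6.13). Cells with either feature numbered 53 among the chosen (19.6%), and counts and some values without them are given below.

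The rule genes themselves are described, not tested, since they chose the cells. Plk1 (ENSMUSG00000030867) stood at 111 CPM, that is per 1000000 UMIs summed over the chosen cells, against 26.6 CPM in the other cells. Ccnb1 (ENSMUSG00000041431) stood at 291 and 87.1 CPM, and Cdc20 (ENSMUSG00000006398) at 423 and 107 CPM. Aurka (ENSMUSG00000027496) had 156 and 47.2 CPM, and Cenpf (ENSMUSG00000026605) had 405 and 132 CPM. Cdc20 and Cenpf gave most of the score, with 30.5% and 29.2% of the 5 genes' UMIs in the chosen cells, against 7.99% for Plk1. When cells were chosen by the other 4 genes alone, each remaining gene was still higher in them. The ratio was 3.49 for Plk1 (3.15 to 3.87), 2.77 for Aurka (2.55 to 3.02), 2.66 for Cdc20 (2.51 to 2.81), 2.52 for Ccnb1 (2.36 to 2.68) and 2.09 for Cenpf (1.98 to 2.21).

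Across the genes with at least 10 CPM in either set of cells, 217 of 7071 (3.07%) were at least 1.5-fold higher in the chosen cells and 20 (0.283%) at least 1.5-fold lower. Ratios are log2((CPM + 1)/(CPM + 1)), which understates the change of low genes, and their median over all genes was 0.07, so values of that size carry no direction. Mitotic genes led the higher side. On 5 lists of genes that act in mitosis, none of which held a rule gene, 68 of 100 genes measured were at least 1.5-fold higher and 0 at least 1.5-fold lower, with a median log2 ratio of 0.75. In LB, cells taken by the same rule had 67 of these 100 genes at least 1.5-fold higher, 59 of them the same genes, with a median of 0.88. There, 8.03% of all 7071 genes were at least 1.5-fold higher and 2.16% at least 1.5-fold lower, with a median of 0.12.

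Genes of the spindle and its motors had the highest median, 1.07, with 27 of 31 at least 1.5-fold higher. Hmmr, which organises spindle microtubules, had 131 CPM in the chosen cells (95% Poisson interval 121 to 141) against 42.7 CPM (40.8 to 44.6) in the others, a log2 ratio of 1.59. Kif20a, a kinesin of the midzone and cytokinesis, had 48.0 CPM (42.1 to 54.4) against 15.3 CPM (14.2 to 16.5). The intervals of each pair were far apart. Nusap1, which bundles spindle microtubules, stood at 215 against 77.0 CPM, and Prc1, which bundles midzone microtubules, at 124 against 55.0 CPM. Tpx2, the activator of Aurka on the spindle, had 130 and 61.5 CPM. Tubulin Tuba1c had 88.1 CPM against 32.8 CPM. The lowest of the list were Spag5, which encodes the spindle protein astrin, with a log2 ratio of 0.30, and Numa1, which anchors microtubules at the poles, with 0.34.

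Genes of the kinetochore and the spindle checkpoint had a median of 0.77, with 18 of 21 at least 1.5-fold higher. The kinesin Cenpe, which moves chromosomes to the metaphase plate, had 52.7 against 22.5 CPM, and the checkpoint protein Bub3 had 194 against 85.5 CPM. Cenpa, the histone variant of centromeres, stood at 521 CPM (501 to 541) and 259 CPM (255 to 264). These 3 genes were each more than 1.5-fold higher in LB as well. The chromosomal passenger genes differed among themselves: Incenp had a log2 ratio of 1.06, Aurkb 0.73 and Birc5 0.59. Spc24, a subunit of the Ndc80 complex, had the lowest ratio of the list, 0.25.

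Genes for entry into mitosis varied more, with a median of 0.51 and 8 of 17 at least 1.5-fold higher. Cdk1 had 210 CPM (197 to 223) against 105 CPM (102 to 108), Ccna2, encoding cyclin A2, had 151 against 74.9 CPM, and Ccnb2, encoding cyclin B2, had 350 against 207 CPM. The phosphatase genes Cdc25c and Cdc25b, whose products activate Cdk1, had log2 ratios of 1.15 and 1.11, at 34.0 and 19.0 CPM in the chosen cells. Genes of the inhibitory kinases that these phosphatases oppose were less apart: Wee1 had 43.2 against 34.2 CPM, and Pkmyt1 22.9 against 23.5 CPM with overlapping intervals.

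Genes for exit from mitosis had a median of 0.34, with 7 of 19 at least 1.5-fold higher. Ube2c, the ubiquitin-conjugating enzyme that primes substrates of the anaphase-promoting complex, had 829 CPM (804 to 854) against 333 CPM (328 to 339). Cdkn3, a phosphatase of Cdk1, had 39.7 against 13.4 CPM, and Fzr1, the late activator of the complex, had 98.3 against 52.3 CPM. The subunit genes of the complex differed among themselves: Anapc7 had a log2 ratio of 0.34, Anapc5 had 209 CPM (196 to 222) and 213 CPM (209 to 217), and Anapc11, the lowest of the list, had 274 CPM (260 to 289) against 325 CPM (320 to 330). Securin, encoded by Pttg1, had 113 CPM in the chosen cells and 73.1 CPM in the others, a log2 ratio of 0.62. In LB its log2 ratio was 1.25.

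Genes of chromosome condensation had a median of 0.66, with 8 of 12 at least 1.5-fold higher. Top2a, the topoisomerase that untangles sister chromatids, had a log2 ratio of 0.91, Mki67, which coats mitotic chromosomes, 0.88, and Smc4, a core subunit of both condensins, 0.88. The subunit genes Ncapg2, Ncaph2 and Ncapd3, which belong to condensin II, were the lowest of the list at 0.17, 0.24 and -0.02. Ncapg, of condensin I, had 0.78. In LB 3 of the 12 genes were at least 1.5-fold higher, and the median was 0.44.

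Genes of the other phases were near the median of all genes. Of 40 S phase genes measured, 0 were at least 1.5-fold higher or lower, with a median of 0.06, which became -0.01 with TMM scaling. The list was not uniform. Slbp, which binds histone messages in S phase, had 60.0 CPM (53.5 to 67.2) against 84.8 CPM (82.2 to 87.5), and Ung, a DNA repair glycosylase of late G1 and S phase, had 92.2 against 127 CPM. Rrm2, a subunit of ribonucleotide reductase, was on the other side with 167 against 113 CPM. Of 10 genes of G1 and its inhibitors measured, 0 passed 1.5-fold, with a median of -0.01. Ccne1, encoding cyclin E1, had a log2 ratio of -0.26, and E2f1, a transcription factor of the G1 to S transition, -0.42. The replication-dependent histone transcript Hist1h2ap, named after its values were seen and counted among cell cycle genes, was the lowest gene at 50 CPM or more, with 178 CPM against 364 CPM. The method reads polyadenylated ends, so its level may not stand for all histone RNA.

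**Figure D2:**
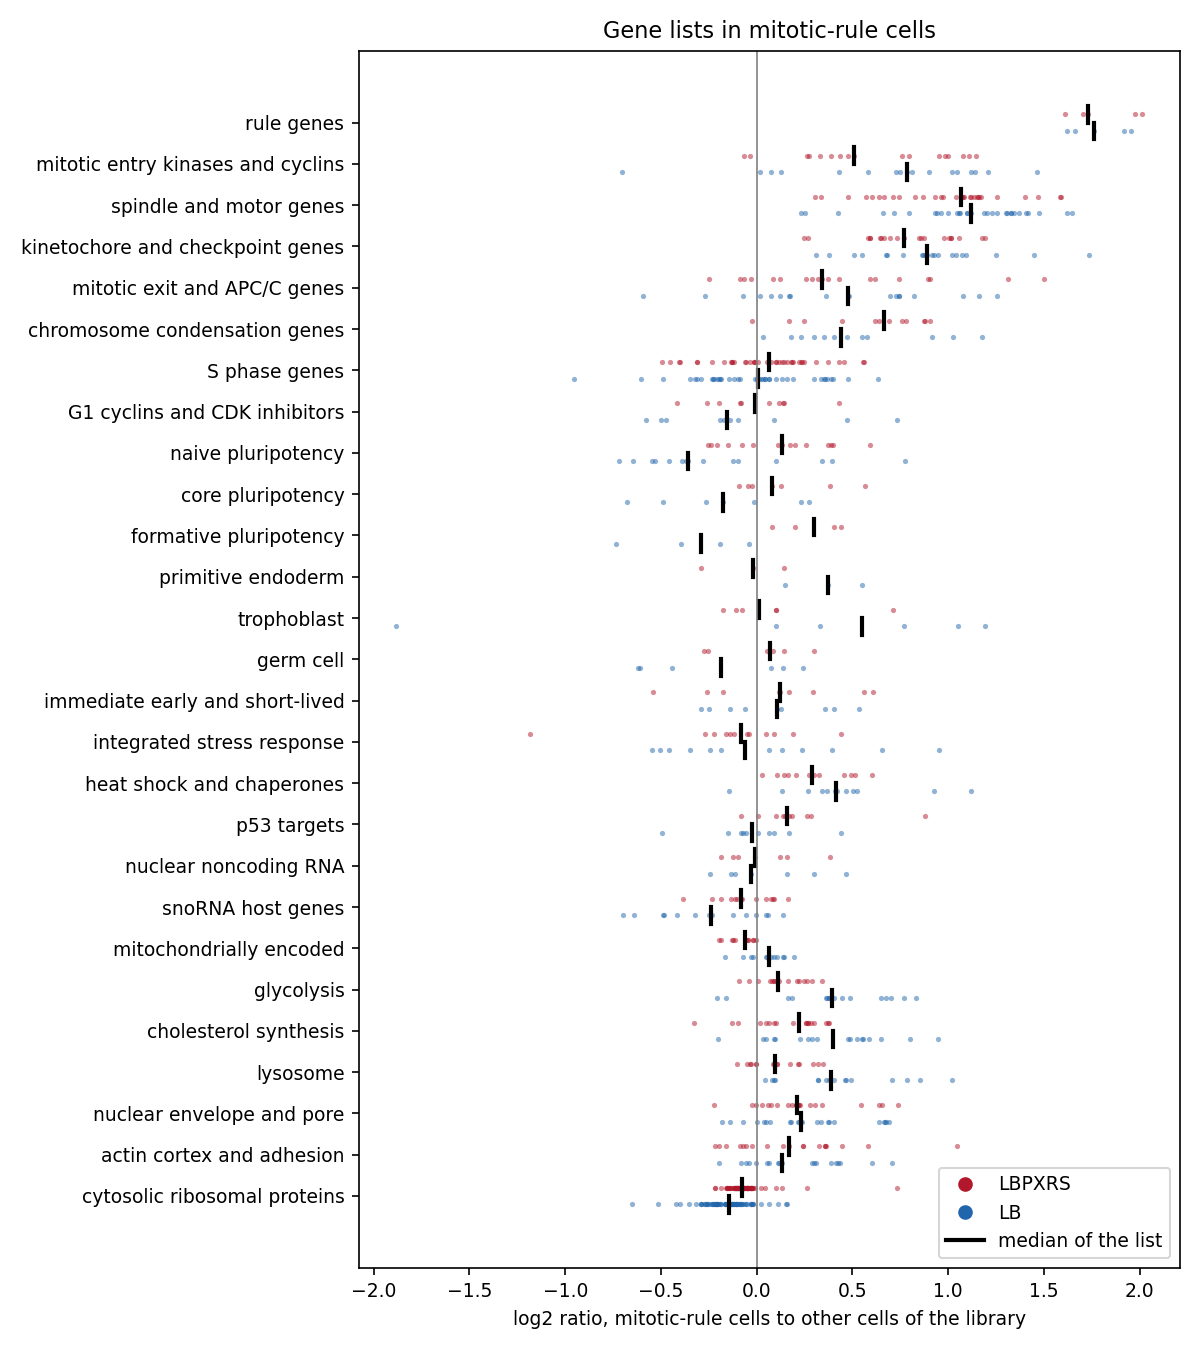
Log2 ratio of CPM between the cells taken by the rule and the other cells of the same library (horizontal axis), for genes with at least 10 CPM in either LBPXRS set, by list where at least 3 such genes were measured; red points are LBPXRS, blue points LB, and black bars the medians. The 5 mitotic lists had medians of 0.34 to 1.07 in LBPXRS, while S phase, G1, naive and core pluripotency lists had medians of -0.01 to 0.13.

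In the plot of lists, glycolysis, cholesterol and lysosome genes had medians of 0.10 to 0.22 in LBPXRS and of 0.39 to 0.40 in LB. To see whether the chosen cells continued a gradient, all 2705 cells were split into 10 bins of equal size by the score, bin 10 being the chosen cells. The summed CPM of each of the 5 mitotic lists was higher at every one of the 9 steps from bin 1 to bin 10. Spindle and motor genes summed to 744 CPM in bin 1, 1111 in bin 5, 2120 in bin 9 and 2688 in the chosen cells. Condensation genes summed to 1042 CPM in bin 1 and 2618 CPM in the chosen cells. S phase genes stayed between 2502 and 3092 CPM over all bins, with the lowest sum in bin 1 and 3001 CPM in the chosen cells. The chosen cells were thus the upper end of a gradient in the mitotic lists.

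**Figure D3:**
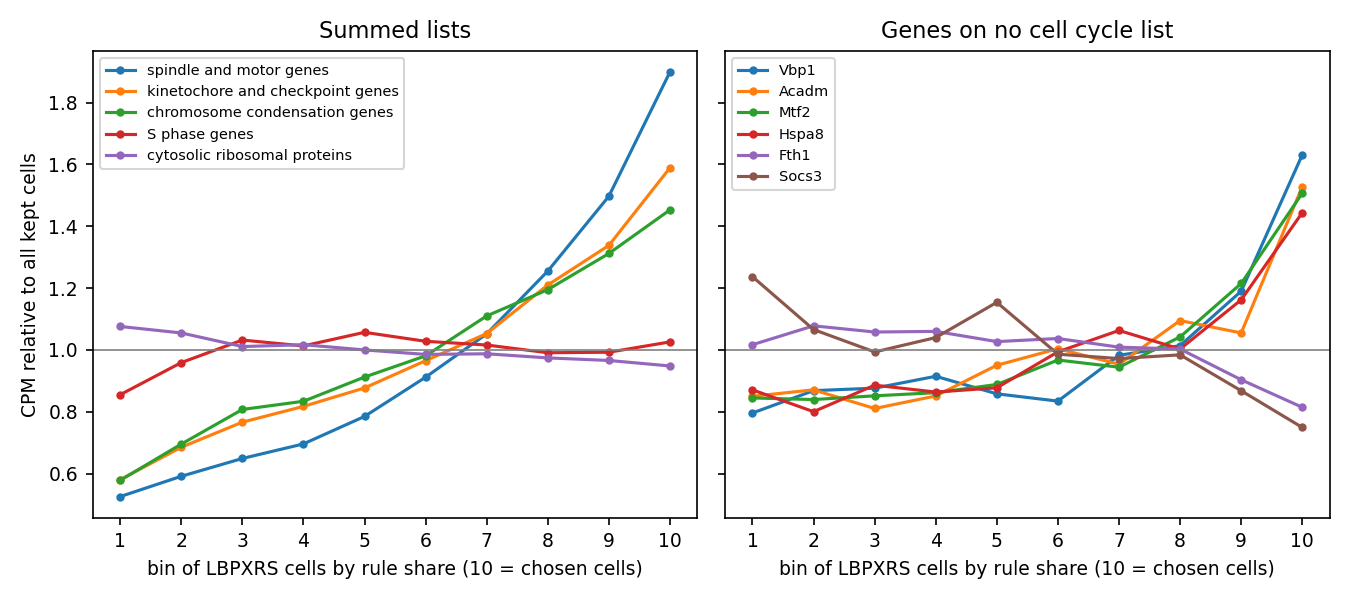
CPM in each of 10 bins of LBPXRS cells ranked by the score, divided by the CPM of all kept cells (vertical axis), for summed gene lists at left and single genes on no cell cycle list at right; bin 10 holds the 270 chosen cells. Spindle genes climbed from 744 to 2688 CPM over the bins, while Vbp1, Acadm, Mtf2 and Hspa8 had their top level in bin 10. Each was named for its ratio in the chosen cells, Hspa8 as the highest chaperone, so this top level restates the choice.

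In the plot of CPM by bin, Mtf2 and Vbp1 were higher at 7 of the 9 steps, Acadm and Hspa8 at 6. To find genes outside the cell cycle, 443 genes measured here were set aside as cell cycle genes by hand-made lists and name patterns, which leaves 6628. Of these, 103 (1.55%) were at least 1.5-fold higher in the chosen cells and 18 (0.272%) at least 1.5-fold lower. Among the 2237 with at least 50 CPM in either set, 17 (0.76%) were higher and 0 lower. A gene could reach these minimums through the chosen cells alone: 45 of the 103 had under 10 CPM in the other cells, and 10 of the 17 had under 50. Among the 2067 genes with at least 50 CPM in the other cells, 7 (0.339%) were higher and 0 lower. Without the 53 chosen and 144 other cells of low depth or low mitochondrial share, the counts were 103 and 21, with 86 of the 103 genes in common. Of the 103 genes, 81 were shared with the top 5% of cells, 71 when the rule was applied without those cells, 65 with TMM scaling, 41 when cells were thinned to 5000 UMIs before scoring, 43 with the top 20% of cells, 56 with a stricter cell filter, and 57 to 82 with 1 rule gene left out. TMM scaling gave 65 higher and 37 lower, so the share of higher genes among those past 1.5-fold went from 85.1% to 63.7%; for all 7071 genes it went from 91.6% to 80.7%. The count on the lower side thus depended on the scaling.

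The 12 genes with the highest ratios at 50 CPM or more were Vbp1, Rpl39l, Gpx3, Calcoco2, Gss, Acadm, Atp6ap2, Mtf2, Terf1, Basp1, Uchl1 and Pecam1, with log2 ratios from 0.80 down to 0.64. Gpx3, Calcoco2, Gss, Terf1, Basp1, Uchl1 and Pecam1 had under 50 CPM in the other cells. They met the minimum through the chosen cells alone. Vbp1 (ENSMUSG00000031197, chrX:75514299-75534942, plus strand) encodes a subunit of prefoldin, a chaperone that delivers new tubulin and actin chains for folding. It had 126 CPM in the chosen cells (116 to 136) against 71.7 CPM in the others (69.3 to 74.2). Over bins 1 to 9 it lay between 61.3 and 91.7 CPM. These 12 genes were picked for their level in bin 10, so that bin standing above the others restates the choice for each of them. In LB it had 126 CPM against 82.7 CPM, and the intervals were apart there too.

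Acadm (ENSMUSG00000062908, chr3:153922357-153944632, minus strand), the medium-chain acyl-CoA dehydrogenase of fatty acid oxidation, had 110 CPM (101 to 120) against 68.0 CPM (65.6 to 70.4). Gss, the glutathione synthetase, had 55.9 CPM (49.6 to 62.8) against 34.2 CPM (32.6 to 35.9). Over bins 1 to 9 the highest level was 78.9 CPM for Acadm and 39.0 CPM for Gss. Gpx3, a secreted glutathione peroxidase, had 65.9 against 40.0 CPM, but it was also high in bin 1, with 55.4 CPM, and its log2 ratio went from 0.71 to 0.54 without the cells of low depth or low mitochondrial share. Atp6ap2, an accessory subunit of the vacuolar proton pump, had 105 against 65.3 CPM, and its log2 ratio in LB was 1.18.

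Mtf2 (ENSMUSG00000029267, chr5:108065674-108109004, plus strand), which helps recruit Polycomb repressive complex 2 to CpG islands, had 286 CPM (272 to 301) against 179 CPM (176 to 183). It lay between 159 and 231 CPM in the other bins. Its log2 ratio in LB was smaller, 0.25. Terf1, a telomere-binding protein of the shelterin complex, had 72.9 against 45.6 CPM. In LB it had 182 CPM (169 to 196) against 89.5 CPM (86.7 to 92.5), a larger ratio than in LBPXRS, although this difference was not tested.

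Calcoco2, an autophagy receptor, had 72.5 against 44.4 CPM. Basp1, a membrane-bound protein of the cell cortex and the nucleus, had 52.1 against 33.0 CPM. Uchl1, a ubiquitin hydrolase, had 75.4 against 47.9 CPM, and Pecam1, an adhesion protein on the surface of pluripotent cells, had 50.5 against 32.2 CPM. For Calcoco2 and Pecam1 the LB ratio was near 1, at 1.04 (0.735 to 1.44) and 1.06 (0.814 to 1.36). With TMM scaling Basp1, Uchl1 and Pecam1 fell below 1.5-fold, with log2 ratios of 0.57, 0.57 and 0.56. With the other cells weighted to the depths of the chosen cells, Basp1, Uchl1 and Atp6ap2 did, with 0.49, 0.57 and 0.57, and with each cell weighted equally Basp1 had 0.50. Over 24 settings, Uchl1 was below 1.5-fold in 10, Pecam1 in 7, Atp6ap2 in 6 and Basp1 in 4, and each of the other named genes in at least 1: Gpx3 in 8, Gss in 4, Vbp1 in 1, and Rpl39l, Calcoco2, Acadm, Mtf2 and Terf1 in 2 or 3.

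Rpl39l (ENSMUSG00000039209, chr16:10170226-10174911, plus strand), a ribosomal protein gene related to Rpl39, differed in direction between the libraries. In LBPXRS it had 145 CPM in the chosen cells (134 to 155) against 86.6 CPM (83.9 to 89.3). In LB it had 11.3 CPM (8.19 to 15.1) against 18.3 CPM (17.0 to 19.6). It stood apart from the other ribosomal protein genes of LBPXRS: of 84 measured, 6 had a ratio above 0 and 4 a ratio above the median of all genes. Rpl39l alone of these passed 1.5-fold. Rpl39 and Rpl39l are near copies, so reads could be divided between them in a way that these counts do not show.

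**Figure D4:**
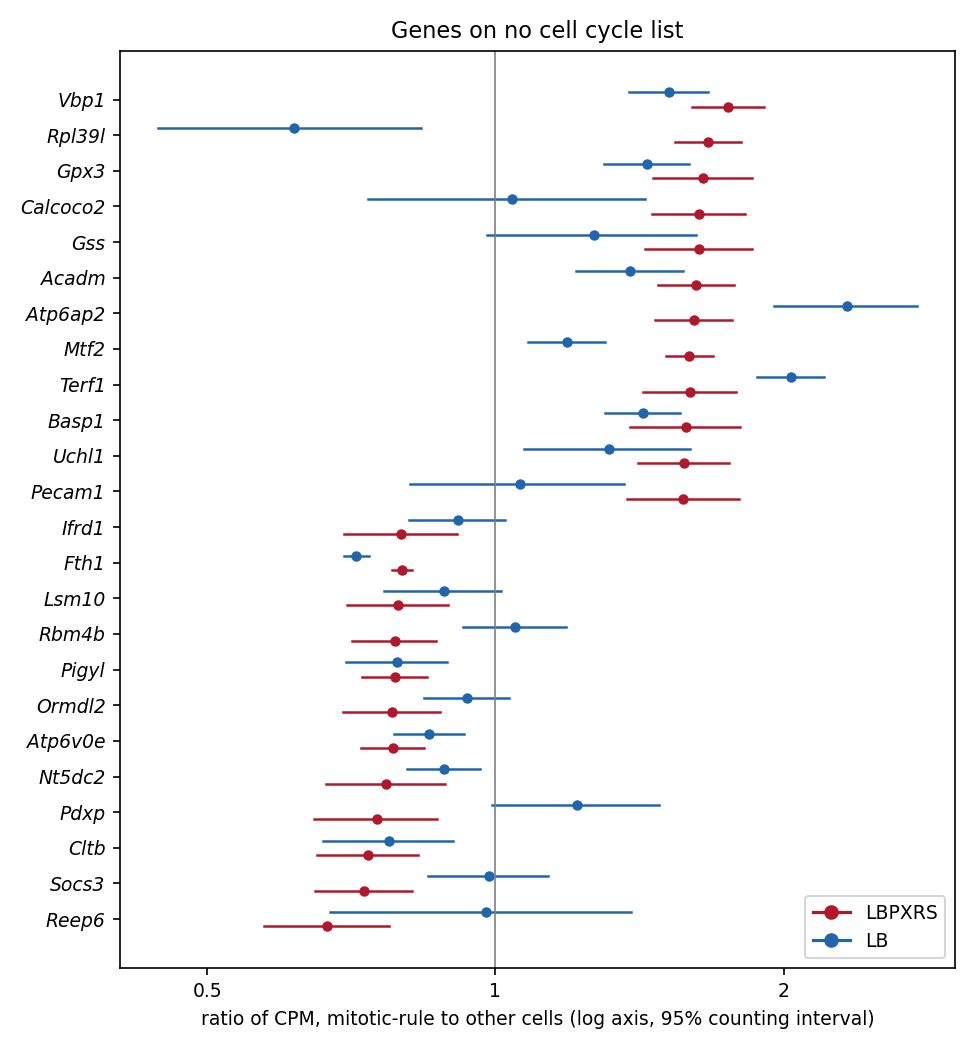
Ratio of CPM between the cells taken by the rule and the other cells of the same library (horizontal log axis), with 95% counting intervals, for the 12 highest and 12 lowest genes on no cell cycle list with at least 50 CPM; LBPXRS in red, LB in blue. The genes were picked by the red values, so the red intervals are no check on them; the LB interval of Rpl39l lies below 1, from 0.444 to 0.836.

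The plot of ratios with their intervals shows a smaller departure on the lower side. The 12 lowest genes at 50 CPM or more had log2 ratios from -0.57 to -0.32, none as far as 1.5-fold. The lowest, Reep6, was at the edge and passed 1.5-fold in 7 of 24 settings, with log2 ratios of -0.64 under TMM scaling and -0.69 with each cell weighted equally. Reep6, a protein that shapes the endoplasmic reticulum, had 37.5 CPM (32.4 to 43.2) against 56.2 CPM (54.1 to 58.4). Socs3, the feedback inhibitor of LIF signalling, had 61.2 CPM (54.6 to 68.4) against 83.9 CPM (81.3 to 86.6), and over the bins it went from 101 CPM in bin 1 to 61.2 CPM in the chosen cells. In LB, Reep6 and Socs3 had ratios of 0.979 (0.672 to 1.39) and 0.985 (0.851 to 1.13).

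Fth1 (ENSMUSG00000024661, chr19:9980598-9985098, plus strand), the heavy chain of the iron store ferritin, had the most UMIs of the 12 lowest genes. It had 1366 CPM (1334 to 1398) in the chosen cells and 1710 CPM (1698 to 1722) in the others, and lay between 1515 and 1807 CPM in the other bins. In LB it had 1221 CPM (1187 to 1256) against 1706 CPM (1693 to 1718). Its direction was thus shared by both libraries. The other genes of the 12 were Cltb, Pdxp, Nt5dc2, Atp6v0e, Ormdl2, Pigyl, Rbm4b, Lsm10 and Ifrd1, with log2 ratios from -0.43 to -0.32. In LB, Pdxp and Rbm4b had ratios above 1, at 1.22 and 1.05.

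Of 15 naive pluripotency genes measured, 1 was at least 1.5-fold higher, Nr0b1 with a log2 ratio of 0.59, and 0 lower, with a median of 0.13. Nr0b1 passed in 15 of 24 settings and had 0.52 with TMM scaling. Nanog had 225 CPM (212 to 239) against 172 CPM (168 to 176), Zfp42 574 against 508 CPM, and Klf2 395 against 330 CPM. The abundant Dppa5a had 4792 CPM against 5055 CPM. Klf4, the lowest of the list, had a log2 ratio of -0.26, and Tfcp2l1 had -0.15. Of the 15 genes, 9 were above the median of all genes, and the list summed to 7018 against 7108 CPM. The core factor Sox2 had 229 CPM (216 to 242) and 232 CPM (228 to 237), with overlapping intervals. All 4 formative pluripotency genes measured were above the median of all genes, with a median of 0.30 (-0.29 in LB), and 0 passed 1.5-fold. The lowest, Otx2 at 0.08, was close to the median of all genes. The 12 genes of the whole list summed to 167 CPM (156 to 179) against 143 CPM (140 to 147). In LB the naive list had a median of -0.36, with Esrrb at 14.9 against 23.8 CPM. The core list had a median of -0.17 there, with Sox2 at 78.9 against 127 CPM. The LB cells taken by the rule also carried more of other lineages: mesoderm genes summed to 580 CPM against 351 CPM and trophoblast genes to 954 against 522 CPM. In LBPXRS the same sums were 6.71 and 7.04 CPM for mesoderm and 136 and 131 CPM for trophoblast. The part of cell composition in the LB ratios was not tested.

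Chaperones were above the median of all genes in 11 of 12 cases, with a median of 0.29, and 1 of them passed 1.5-fold. This was Hspa8 (ENSMUSG00000015656, chr9:40800984-40810087, plus strand), the constitutive Hsc70 chaperone, with 1266 CPM in the chosen cells against 702 to 1018 CPM in the other bins. Hspa8 was named for its ratio in the chosen cells, so bin 10 standing above the others restates the choice. With TMM scaling its log2 ratio went from 0.60 to 0.53 and no longer passed. Hspa5 and Hsp90b1, chaperones of the endoplasmic reticulum, had log2 ratios of 0.49 and 0.46 in LBPXRS, and 1.12 and 0.93 in LB. Of 12 genes of the integrated stress response measured, 1 was at least 1.5-fold lower, with a median of -0.08. It was Chac1, which degrades glutathione, with 10.5 CPM (7.84 to 13.7) against 25.1 CPM (23.7 to 26.5). Trib3, of the same list, had 59.0 CPM against 71.5 CPM. Asns, the highest of the list, had a log2 ratio of 0.44, and the list summed to 1789 against 1744 CPM. Of the chosen cells, 7.78% (4.88 to 11.6) were among the 10% of cells highest in Chac1 and Trib3, against 10.2% of the others (9.05 to 11.5), so the intervals overlap.

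Genes of the nuclear envelope and pore, which are taken apart and rebuilt in mitosis, had a median of 0.21, with 3 of 23 at least 1.5-fold higher and 0 lower. These were Nup37 and Nup93, both pore subunits, with log2 ratios of 0.74 and 0.65, and Lbr, the lamin B receptor, with 0.64. With TMM scaling Nup93 and Lbr, at 0.58 and 0.57, no longer passed. Lmnb1, encoding lamin B1, had 127 CPM against 86.6 CPM. Lbr and Lmnb1 were among the cell cycle genes set aside above. The summed CPM of the whole list, with both included, was higher at each of the 9 steps over the bins, from 1220 to 1631 CPM. Of 19 genes of the actin cortex and of adhesion, 1 passed 1.5-fold, the adhesion protein Epcam, with 43.4 CPM (37.9 to 49.6) against 20.5 CPM (19.2 to 21.8). The median of that list was 0.17.

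Ribosomal protein genes as a whole lay on the other side, with a median of -0.08, or -0.15 with TMM scaling. Together they gave 360829 CPM in the chosen cells and 382675 CPM in the others. Over the bins the sum went from 409307 CPM in bin 1 to 360829 CPM in bin 10, with 2 of 9 steps upward. Of 7 nuclear noncoding RNAs measured, 3 were above the median of all genes, with a median of -0.01; Neat1 had a log2 ratio of -0.01 and Meg3 -0.19. The highest of them, Malat1, had 11764 CPM against 9032 CPM, a log2 ratio of 0.38, and 0.37 without the cells of low depth or low mitochondrial share. Of 12 mitochondrially encoded genes measured, 0 had a log2 ratio above 0, with a median of -0.06. Without the cells of low depth or low mitochondrial share the median was -0.01 and mt-Co2 had a log2 ratio of 0.05, so the count of 0 did not hold there. The rule capped the mitochondrial share in both sets of cells alike.

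**Figure D5:**
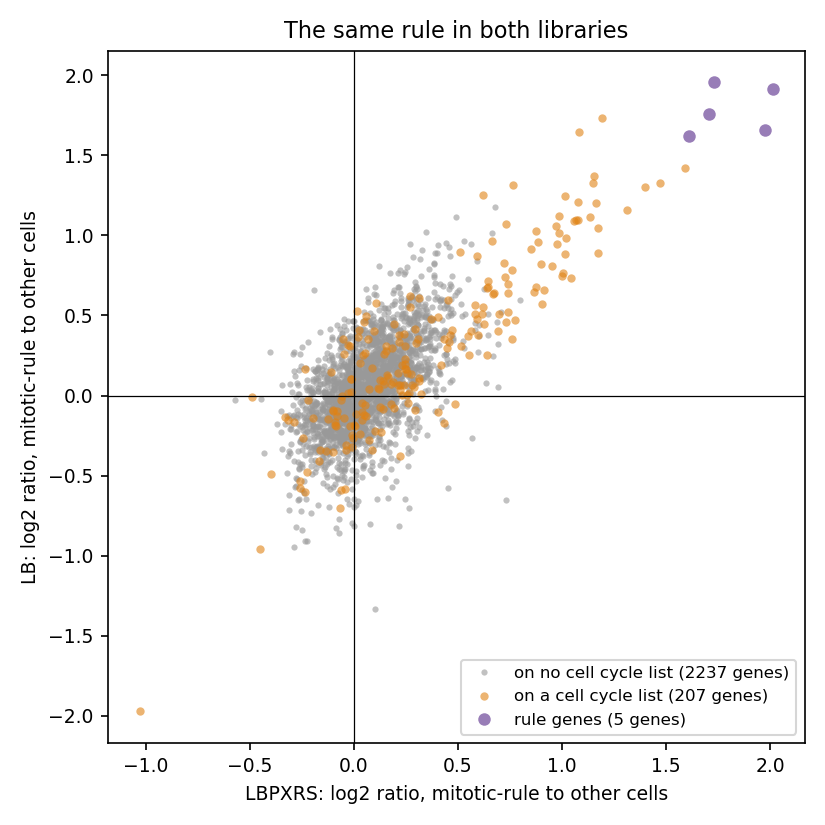
Log2 ratio of CPM between cells taken by the rule and the other cells, in LBPXRS (horizontal axis) and in LB (vertical axis), for genes with at least 50 CPM in either LBPXRS set: 2237 genes on no cell cycle list in grey, 207 on one in orange and the 5 rule genes in purple. Of the 207 genes, 135 lie above 0 on both axes. Of the 2237 genes in grey, 55.4% lie above 0 in LB, and their number above 0 on both axes was not counted.

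The plot of both libraries sets the ratios of LBPXRS beside those of a library that the choice of cells did not use. Of the 103 genes on no cell cycle list that were at least 1.5-fold higher in LBPXRS, 90 (87.4%) had a ratio above 0 in LB, compared with 64.5% of all 6628 genes. For the 58 of them with at least 10 CPM in the other cells as well, the count was 52 (89.7%), against 63.8% of the 6299 genes with that level there. In LB 32 of the 103 were at least 1.5-fold higher, where 6.71% of the 6628 were, and 3 at least 1.5-fold lower; of the 58, 17 (29.3%) were at least 1.5-fold higher, where 5.95% of the 6299 were. Of the 18 lower genes, 14 were below 0 in LB, where 35.5% of the 6628 were, and 5 at least 1.5-fold lower, where 2.2% were. Across the 2237 genes Pearson's r between the ratios was 0.57; genes are not independent, and the value is a description.

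Several genes below 50 CPM were named after their values were seen. Of these, 1700097N02Rik, Hyls1 and Mad1l1 met the minimum of 10 CPM through the chosen cells alone. 1700097N02Rik (ENSMUSG00000099474), a transcript without a gene name, had 26.7 CPM (22.4 to 31.6) against 7.98 CPM (7.19 to 8.83), a log2 ratio of 1.62. It was higher at 8 of the 9 steps over the bins, from 3.76 CPM in bin 1. In LB it went the other way, with 50.5 CPM (43.7 to 58.0) against 81.6 CPM (78.9 to 84.4). Hyls1, a centriole protein, had 10.7 against 4.26 CPM. Mad1l1, a spindle checkpoint protein, Camsap3, which binds minus ends of microtubules, and Tbce, a tubulin folding cofactor, had log2 ratios of 0.64, 0.84 and 0.66. Several of these are known to act on centrioles, microtubules or the checkpoint, so the hand-made lists did not hold every cell cycle gene. On the lower side Gm15879 had 19.0 CPM (15.4 to 23.1) against 38.7 CPM (37.0 to 40.6), with 12.5% of its UMIs in the chosen cells coming from 1 cell. Its log2 ratio of -0.99 became -0.06 with the top 20% of cells and -0.15 with Ccnb1 left out of the rule.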

How the data were processed

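Single-cell RNA of 2 libraries, LB and LBPXRS, was captured by 10x Genomics 3′ chemistry, version 2, with NovaSeq sequencing, per the labels' protocols. The authors deposited UMI counts per gene and barcode, unnormalized, per the file headers. Cell Ranger 4.0.0 and build mm10 are named in the submitters' processing notes; the annotation and the cell calling are not given in the sources used here. The table lists 32285 genes.

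Cells with at least 1000 genes and at most 10% mitochondrial UMIs were kept. UMIs were summed over the chosen and over the other cells and scaled to CPM. Log2 ratios used a pseudocount of 1, and genes with at least 10 CPM in either set were counted past 1.5-fold by size. There are no replicates, so no p-value is given. Intervals (95%) are exact Poisson for CPM and exact binomial for ratios and shares, and hold counting error alone. The 12 highest and 12 lowest genes outside the cell cycle lists, at 50 CPM or more, were named, with members of 30 gene lists. The chosen cells and the lists were selected with earlier results of these data known. Scrublet in scanpy 1.11.5 marked 10 LBPXRS cells (0.370%), 0 of them chosen; since it marked so few, it may have missed doublets, and marked cells were kept.

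Gene positions are from GENCODE vM21 on GRCm38, promoters from RefSeq. The scripts, in Python 3.11.15 with numpy 2.4.6, scipy 1.17.1 and pandas 2.3.3, were tested on simulated data. TMM factors came from edgeR 4.0.16. Alternatives changed the share of cells taken, the rule genes, the depth, the filters, the pseudocount, the weights and the scaling. Leaving out the cells highest in Chac1 and Trib3, leaving out cells of low depth or low mitochondrial share, applying the rule without the latter, and leaving out barcodes kept in both libraries were chosen after seeing the data.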

Additional observations from a re-analysis of the deposited data

Results flagged for a closer look

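Of the genes examined by name, 5 had counting intervals of the ratio wholly on one side of 1 in LBPXRS and wholly on the other in LB, with 1 library each; Further genes, among them Pdxp, Rbm4b, Nanog, Esrrb, Trib3 and Krt8, also had ratios on opposite sides, with an interval that held 1. Not every gene of the lists was examined in this way. The difference between the libraries was not tested. The log2 ratio of 1700097N02Rik was 1.62 in LBPXRS, where it met the 10 CPM minimum through the chosen cells alone, and -0.68 in LB. Rpl39l had 0.73 and -0.65. Klf2 had 0.26 and -0.36, and Zfp42, another naive pluripotency gene, had 0.18 and -0.46. Gapdh, an enzyme of glycolysis, had -0.038 in LBPXRS, nearer to 0 than the median over all genes of 0.07, and 0.18 in LB.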

How the results depend on the processing

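No paired analysis was possible because each condition has 1 library and the counts come from no test. With 217 genes at least 1.5-fold higher, 20 lower, and 103 and 18 of these on no cell cycle list, the following alternatives moved a count by more than 1.5 times. Taking the top 5% of cells gave 404, 100, 274 and 98. Taking the top 20% gave 5 lower, and 56 and 3 outside the lists. A minimum of 50 CPM gave 84, 1, 17 and 0, and no filter gave 519, 424, 397 and 412. Weighting each cell equally gave 420, 38, 284 and 35. Comparing with cells below the median score gave 382, 39, 235 and 34. Centring on the median gene gave 36 lower, and 68 and 34 outside the lists; TMM scaling gave 39, 65 and 37. On the lower side alone, for all genes and outside the lists, scoring thinned cells gave 12 and 11, a pseudocount of 0.1 gave 31 and 29, and a stricter cell filter (at least 2000 genes, 0.5 to 5% mitochondrial) gave 13 and 11. The cause was not tested, beyond more or fewer genes entering with the filters. Counts under the remaining alternatives, those added after seeing the data included, stayed within 1.5 times. Of 665 list medians under the alternatives, 328 were counted as moved. Among called values, 1 changed sign: the neural list without a filter, from 0.66 for Tubb3 alone to -0.062. Medians near 0 also changed sign over the settings, among them S phase (-0.01 to 0.13), trophoblast (-0.35 to 0.18) and germ cell genes (-0.15 to 0.32). Vbp1 was at least 1.5-fold higher in 23 of 24 settings, Mtf2 and Acadm in 21, Gpx3 in 16 and Hspa8 in 12; Chac1 and Epcam stayed past 1.5-fold in all 24. Cells chosen by 4 of the 5 rule genes were not examined under other filters, TMM scaling, depth weights or a further rule gene left out. Depth limits genes near 10 CPM, and there are no replicates.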

Other observations

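Genes of other cell types were mostly low or level in the chosen LBPXRS cells. All 3 measured primitive endoderm genes, Col4a1, Col4a2 and Sparc, lay within 1.5-fold, and 2-cell embryo genes summed to 20.1 CPM against 15.0 CPM, with Ddit4l the only one of them at 10 CPM or more and 14 of 16 listed genes without a UMI. The trophoblast factor Gata3 had a log2 ratio of 0.71, whereas Gata2 had -0.17. The value of Gata2 became -0.66 without the cells of low depth or low mitochondrial share, and 0.13 with each cell weighted equally. Trophoblast genes summed to 297 CPM in bin 1 of the score and to 103 to 136 CPM in the other bins. Cells among the 10% highest in Spp1 made up 15.6% of the chosen cells (11.5 to 20.4) and 9.36% of the others (8.24 to 10.6). For Gata2 and Aqp3 together these shares were 14.1% (10.2 to 18.8) and 9.53% (8.39 to 10.8), although Gata2 alone had a log2 ratio of -0.17. For Lin28a and Tcf7l1 they were 11.1% (7.62 to 15.5) and 9.86% (8.70 to 11.1). For the keratins Krt8 and Krt18 the shares were 10.0% and 9.98%, but their levels rested on few cells: 42.9% of the Krt8 and 50.6% of the Krt18 UMIs of the chosen cells came from 1 cell. The log2 ratio of Krt8 was -0.11, 1.04 without the cells of low depth or low mitochondrial share, and -1.61 with the other cells weighted to the same depths; for Krt18 it was 0.10, 0.91 and -1.20.

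For 18 genes of sterol synthesis the median log2 ratio was 0.22, and 0 were at least 1.5-fold higher or lower; their sum went from 727 CPM in bin 1 to 996 CPM in the chosen cells. Genes of the lysosome had a median of 0.10, with their highest sum, 2497 CPM, in bin 1. Of 10 genes of the p53 response, 1 passed 1.5-fold: Eda2r, a death receptor, with 0.88. Short-lived immediate early transcripts had a median of 0.12, and Klf6, a zinc finger factor, was the only one of 9 past 1.5-fold, with 0.61, or 0.54 with TMM scaling, which did not pass. No gene of glycolysis (16 measured, median 0.11), core pluripotency (7, 0.08), germ cells (6, 0.07) or snoRNA hosts (14, -0.08) passed 1.5-fold in either direction. Tubb3, a neuronal tubulin and the only neural gene at 10 CPM or more, had 0.66, and 0.29 with the other cells weighted to the depths of the chosen ones.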
